A study of Mus musculus with 29 samples.

Results

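Kidney tissue and tertiary lymphoid structures (TLS) dissected from the same kidneys were compared in proteinuric mice of the lupus-prone strain (NZBxNZW)F1, also called NZB/W. The comparison rested on 7 libraries, 4 of kidney (mice H6, H20, H115 and H117) and 3 of TLS (mice H6, H20 and H115), so that 3 mice had both tissues. In the labels, mouse H6 was aged 39 weeks, mouse H20 was aged 36 weeks, mouse H115 was aged 25 weeks and mouse H117 was aged 32 weeks. All carried the label proteinuric, and no treatment is given. All 4 kidney libraries in the labels were kept. TLS were cut out by hand under a loupe, RNA of both tissues was purified with TRIzol, and poly(A) RNA was sequenced on an Ion Torrent PGM. The table lists 13982 genes, and 7188 of them, those that averaged 5 or more over the 7 libraries, were compared. A further 6794 genes fell below this filter, 833 of them with no read in any of the 7 libraries. Values are reads scaled to the library, after 1 read was added to every gene, so a gene with no read has a value between 0.786 and 1.77.

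TLS are aggregates of B cells, T cells, plasma cells and antigen-presenting cells that form in chronically inflamed organs and are organized by lymphotoxin and by the chemokines CXCL13, CCL19 and CCL21. Lymphocytes enter such structures through high endothelial venules, vessels that carry sulfated mucins such as GLYCAM1. The kidney around them consists mostly of nephron epithelium, in which the proximal tubule takes back glucose, amino acids, phosphate and proteins, excretes organic anions and draws its energy from fatty acid oxidation.

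The number of reads was between 346568 and 377110 in kidney and between 378967 and 443379 in TLS. The libraries differed in ribosomal RNA, whose 2 genes held 55.6% of reads for kidney of mouse H117 (95% Wilson interval 55.4% to 55.8%) and 21.3% for TLS of mouse H115 (21.2% to 21.4%), and between 1.64% and 5.13% in the other libraries. The floor was set at 3 reads, a value between 2.36 and 5.32. Intervals and floors cover counting error only. Antibody and T-cell receptor genes took 0.765%, 0.897%, 0.147% and 0.662% of the other reads in kidney of mice H6, H20, H115 and H117. In TLS of mice H6, H20 and H115 they took 25.4% (25.3% to 25.5%), 16.0% (15.9% to 16.1%) and 7.12% (7.04% to 7.21%). The lowest TLS library thus stood above each kidney library, and TLS of mouse H6 had the largest share. Mitochondrially encoded genes took 4.63%, 15.3% and 24.5% of the other reads in the TLS of mice H6, H20 and H115, against 15.7% to 25.2% in kidney.

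Of the 7188 genes, 793 (11%) were differentially expressed (DE) in limma on log2(value + 1), by an adjusted p (Benjamini-Hochberg) under 0.05. Of these, 460 (6.4% of the genes tested) were up-regulated in TLS and 333 (4.63%) in kidney. The fold changes were larger in TLS, with a median of 2.72 on the log2 scale and 191 genes at 3 or more, than in kidney, with a median size of 1.69 and 1 gene at 3 or more. The 460 included 139 segments and 10 constant regions of antibody and T-cell receptor genes, and the 333 included 0 of either. Over all 179 such segments tested, the median was 4.24. At an unadjusted p under 0.05 there were 1909 genes. In 3 of 3 mice, 458 of the 460 genes and all 333 genes had the direction of the fit. Over all genes tested, TLS was above kidney in 3 of 3 mice for 1315 genes (18.3%) and kidney above TLS for 2720 genes (37.8%). The libraries of the tissues did not overlap for 1763 genes (24.5%), with TLS higher in 809 (11.3%) and kidney higher in 954 (13.3%). Among the DE genes, the libraries overlapped in 6, namely C1qc, Ifi27l2a and the segments Igkv3-1, Ighv3-3 and Ighv1-22 among those up-regulated in TLS, and Slc4a9 among those up-regulated in kidney. The median log2 fold change of all genes tested was -0.08, and it was 0.05 with TMM scaling in limma and 0.10 with the DESeq2 Wald test on the recovered reads. The share of DE genes that were higher in kidney was 42.0% in this fit, 28.0% with DESeq2 and 20.0% with edgeR and TMM scaling on the recovered reads. With the mouse as a replicate block, there were 557 DE genes higher in TLS and 859 higher in kidney (60.7%). The block compares tissues within mice H6, H20 and H115, so unpaired kidney of mouse H117 does not enter its fold changes. In the fit without the block, the numbers fell to 207 and 48 without TLS of mouse H6 and to 299 and 126 without TLS of mouse H20. They fell to 325 and 102 without kidney of mouse H115, to 327 and 162 without kidney of mouse H117 and to 388 and 177 without kidney of mouse H6. Without kidney of mouse H117 and TLS of mouse H115, the libraries with the most ribosomal RNA, 372 and 259 genes were DE. A DE gene given below with its value in each library kept its call with each of the 7 libraries left out, unless a value or count without a library is given beside it. A fold change on log2(value + 1) understates the change of low genes. A gene low in one tissue could pass the filter through the other alone, so the share of a list that was DE partly depends on the filter. A lower value in one tissue can come from fewer cells of a type or from less RNA per cell, which cannot be told apart in these samples.

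**Figure D1:**
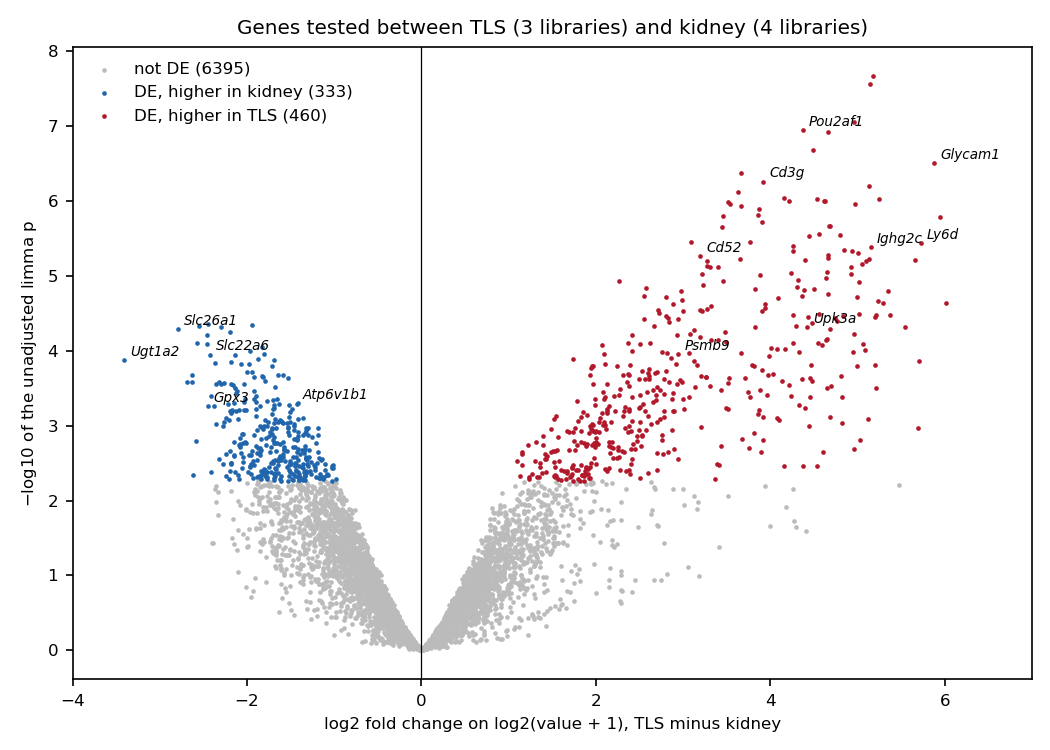
Volcano plot of the 7188 genes tested, with the log2 fold change of TLS over kidney on log2(value + 1) on the x axis and the negative log10 of the unadjusted limma p on the y axis. Each point is a gene, red for the 460 DE genes higher in TLS, blue for the 333 higher in kidney and grey for the others. The red points reach fold changes above 5, whereas all blue points but one lie within 3 of 0.

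Genes of the B-cell receptor and its coreceptors were up-regulated in TLS in each of the 11 members tested (median log2 fold change 3.23, or 2.05 with 5 genes near 0 in kidney set at their lower bound, beside -0.08 over all genes). Their libraries did not overlap, and TLS was higher in 3 of 3 mice for all 11, beside 11.3% and 18.3% of all genes tested. Over all genes tested, 6.4% were up-regulated in TLS. Cr2, Btk, Bank1 and Pax5 fell below the filter. The values of the 11 genes summed to only 31.8, 58.2, 18.5 and 42.6 in kidney of mice H6, H20, H115 and H117. Members could thus pass the filter through TLS alone, so these counts are partly set by the filter. Cd79a (ENSMUSG00000003379; chromosome 7, 24897381 to 24902197), a signalling chain of the B-cell receptor, had values of 4.42, 9.28, 1.16 and 8.87 in kidney of mice H6, H20, H115 and H117 and of 221, 149 and 145 in TLS of mice H6, H20 and H115. The lowest TLS library was far above the highest kidney library (log2 fold change 4.85, standard error 0.53, limma adjusted p = 0.000837). Its partner Cd79b had values of 3.54, 10.1, 1.16 and 8.87 in the same kidneys and of 156, 99.0 and 108 in TLS (4.38, adjusted p = 0.00156). Kidney of mouse H115 had no read of either gene. With 1 library left out, between 9 and 11 of these genes were DE, the fewest without TLS of mouse H6 or of mouse H20.

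The tetraspanin Cd37 (ENSMUSG00000030798; chromosome 7, 45233632 to 45239115), which is found on mature B cells, had values of 1.77, 4.22, 1.16 and 3.55 in kidney and 71.2, 33.8 and 40.3 in TLS (3.77, standard error 0.40, adjusted p = 0.000745). Its promoter, from 250 bases before to 50 bases after the start site (RefSeq, GRCm38.p6, chr7:45238790-45239089, minus strand), is shown because its expression rose with the other B-cell genes and it holds the letters GAGGAAGT, a core that PU.1 can bind, in reverse complement. The capitals, with their first base at position -25 from the start site, mark the match.
Cd37 promoter: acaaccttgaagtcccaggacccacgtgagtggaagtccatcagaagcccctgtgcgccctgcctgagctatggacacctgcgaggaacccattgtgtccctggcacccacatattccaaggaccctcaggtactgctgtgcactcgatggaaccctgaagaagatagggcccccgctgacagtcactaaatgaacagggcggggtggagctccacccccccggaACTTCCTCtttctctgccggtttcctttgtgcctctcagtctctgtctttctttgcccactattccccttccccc
On either strand, 3.20% of the 32851 promoters in the RefSeq table hold these letters. The table held a promoter for only 215 of the 460 DE genes higher in TLS and 258 of the 333 higher in kidney, too few for a comparison of motif shares between the groups, which is therefore void.

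Of the 10 plasma cell genes tested, 6 were up-regulated in TLS (60%, beside 6.4% of all genes tested, median 2.07, or 1.58 at the bound) and 0 in kidney. All 10 were higher in TLS in 3 of 3 mice, where 18.3% of all genes tested were. Mzb1, a chaperone of antibody assembly, had values of 3.54, 12.7, 4.64 and 8.87 in kidney and 528, 163 and 148 in TLS (4.94, standard error 0.54, adjusted p = 0.000837). The joining chain gene Igj (ENSMUSG00000067149; chromosome 5, 88519809 to 88527891) had values of 53.9, 50.6, 10.4 and 28.4 in kidney and 889, 971 and 559 in TLS (4.65, adjusted p = 0.00113), with kidney of mouse H115 lowest. Pou2af1 (ENSMUSG00000032053; chromosome 9, 51213708 to 51240080), the coactivator of octamer-binding factors in B cells, had no more than 1 read in any kidney and values of 58.5, 55.8 and 32.7 in TLS, at least 9.03-fold higher (adjusted p = 0.000173). Xbp1 and Sdc1 were not DE (1.42 and 1.66, limma adjusted p = 0.0795 and 0.0635) but were DE with the mouse as a replicate block (adjusted p = 0.0292 and 0.0413). With 1 library left out, the number of DE plasma cell genes ranged from 3, without TLS of mouse H6, to 7, without kidney of mouse H6, and it was 4 without kidney of mouse H117.

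Among the 9 immunoglobulin constant region genes tested, 7 were up-regulated in TLS (77.8%, beside 6.4% of all genes tested, median 4.64). Ighg2c (chromosome 12, 113285325 to 113288932) had values of 248, 298, 108 and 165 in kidney and 14909, 5344 and 3966 in TLS (5.15, standard error 0.56, adjusted p = 0.000797). TLS of mouse H6 had the highest value. Ighm, the constant region of IgM, had values of 92.8, 114.7, 22.0 and 63.9 in kidney and 2222, 1264 and 1042 in TLS (4.50, adjusted p = 0.00155). Ighg3, Ighg1 and Ighg2b had log2 fold changes of 5.24, 5.22 and 5.00 (adjusted p = 0.00192, 0.00896 and 0.000857), and reads could have been split among these related genes. The 4 IgG genes together made up 89.8% (95% Wilson interval 89.5% to 90.1%), 85.3% (84.7% to 85.9%) and 83.9% (83.0% to 84.7%) of the heavy-chain constant region reads in TLS of mice H6, H20 and H115. In kidney of mice H6, H20, H115 and H117 they made up 70.6% (66.8% to 74.0%), 72.1% (69.0% to 75.0%), 85.5% (79.1% to 90.2%) and 74.9% (69.6% to 79.5%). The tissues overlapped in this share because of kidney of mouse H115, which had only 152 such reads, against 291 to 835 in the other kidneys. Igha, the constant region of IgA, was the only heavy-chain gene tested that was not DE (3.00, adjusted p = 0.0576), and it was DE with the mouse as a replicate block (adjusted p = 0.00446). It had values of 65.4, 81.0, 5.79 and 69.2 in kidney and 543, 389.8 and 155 in TLS, of which kidney of mouse H115 was the lowest.

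The light chains gave an uneven picture. Iglc2 (ENSMUSG00000076937; chromosome 16, 19198396 to 19200351), a lambda constant region, had values of 3.54, 25.3, 5.79 and 8.87 in kidney and 339, 178 and 216 in TLS (4.64, adjusted p = 0.00125). Igkc, the only kappa constant region, had values of 211, 208, 126 and 375 in kidney and 234, 246 and 438 in TLS, which overlapped (0.46, adjusted p = 0.564). Of the 81 kappa variable segments tested, 63 were nevertheless up-regulated in TLS (median 4.54). Reads on these segments numbered 37707, 27568 and 10745 in TLS of mice H6, H20 and H115, whereas Igkc had 275, 312 and 401. In kidney of mice H6, H20, H115 and H117, the segments had 1008, 1252, 128 and 356 reads and Igkc had 238, 246, 108 and 210. Relative to Igkc, each TLS library thus had more reads on kappa segments than each kidney library, and the reason was not tested. Of the heavy-chain variable segments, 65 of 86 tested were up-regulated in TLS (median 4.00), with reads on 110, 113 and 90 of the 120 listed segments in the TLS libraries and on 64, 64, 19 and 43 in the kidney libraries. All 179 variable, joining and diversity segments tested together included 139 DE genes, each higher in TLS (77.7%, beside 6.4% of all genes tested).

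Among T-cell genes, all 9 genes tested of the T-cell receptor complex and its signalling were up-regulated in TLS, beside 6.4% of all genes tested. Their median was 2.93, or 2.69 once 4 genes are set at their lower bound. Their values summed to only 28.3, 34.6, 15.1 and 16.0 in kidney of mice H6, H20, H115 and H117, so this count is also partly set by the filter. Cd3g (ENSMUSG00000002033; chromosome 9, 44969572 to 44980431), a chain of the CD3 complex, had values of 1.77, 4.22, 1.16 and 1.77 in kidney and 45.8, 43.2 and 45.8 in TLS (3.91, standard error 0.34, adjusted p = 0.000398). The TLS libraries lay close together in this gene. Trbc2, a constant region of the T-cell receptor beta chain, had values of 8.84, 3.37, 2.32 and 1.77 in kidney and 102, 47.9 and 55.6 in TLS (3.88, adjusted p = 0.00116). Cd2, an adhesion receptor of T cells, had no read in any kidney library and values of 28.8, 19.6 and 19.6 in TLS, at least 4.09-fold higher (adjusted p = 0.000547). The other 9 listed genes fell below the filter, among them Cd8a, with 8, 6 and 2 reads in TLS of mice H6, H20 and H115 and no read in kidney, and Cd3e, with 16, 9 and 3 reads in TLS and 1 in all kidneys together. Of the 9 genes tested, 6 were DE without TLS of mouse H6. Of the 10 listed genes of cytotoxic lymphocytes, only Ccl5 was tested, with values of 8.84, 34.6, 1.16 and 1.77 in kidney and 33.1, 22.8 and 9.81 in TLS (log2 fold change 1.61, adjusted p = 0.306 in limma, 0 genes at an unadjusted p under 0.05 and 0 with edgeR and DESeq2). Its tissues overlapped, and without kidney of mouse H20 it was DE.

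**Figure D2:**
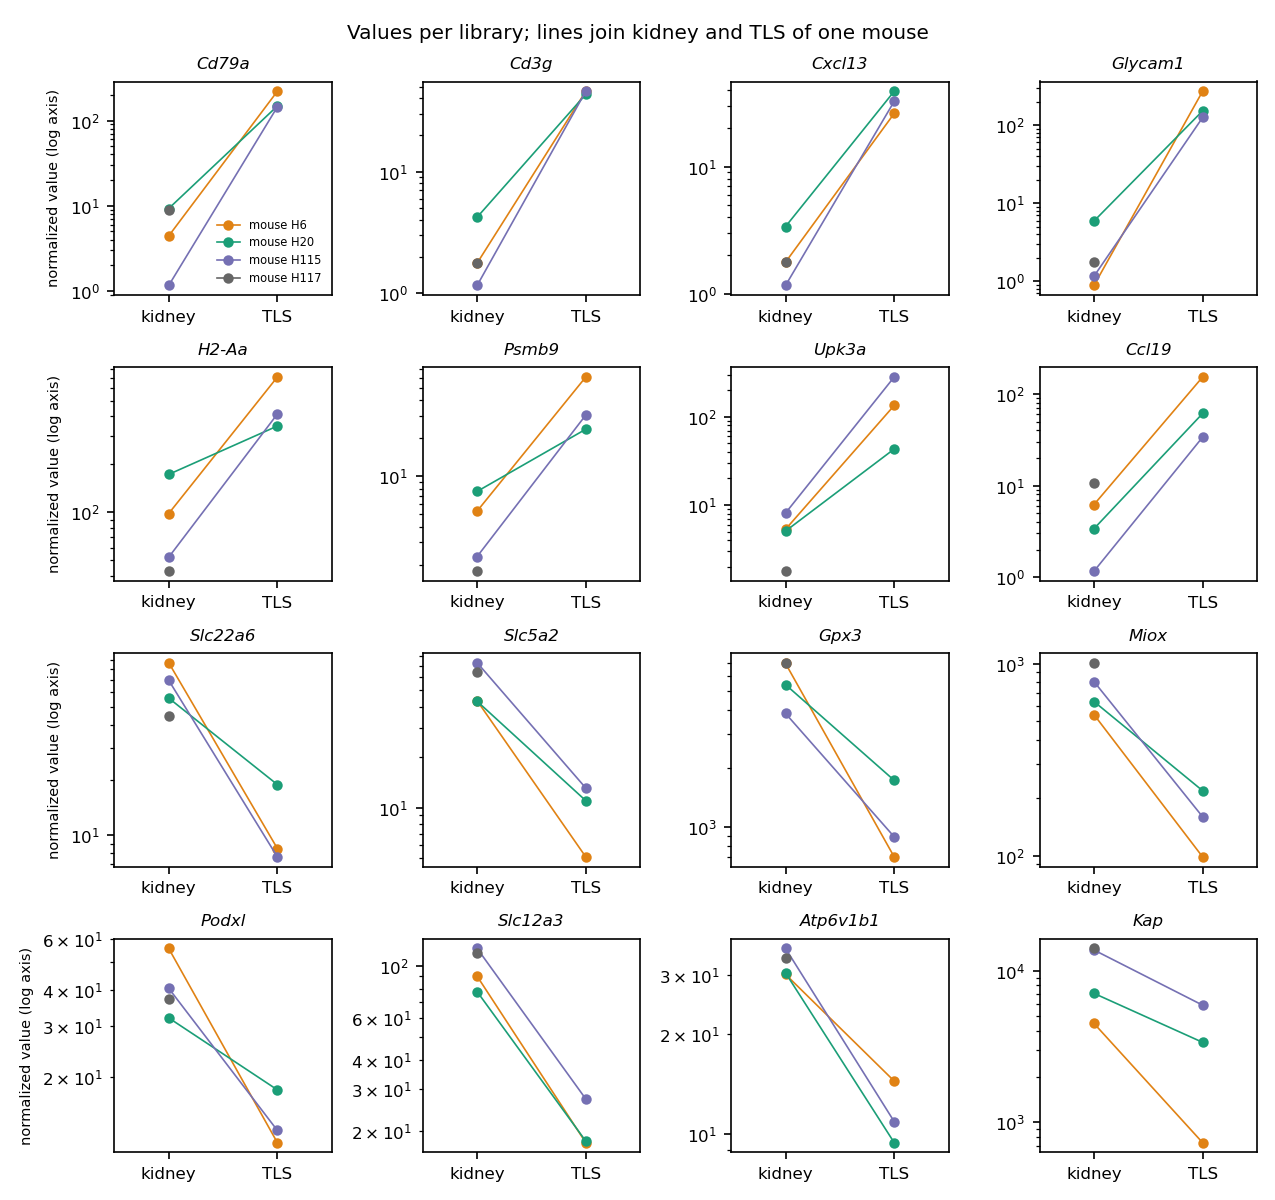
Normalized values of 16 genes in each library on a log axis that starts above 0, with kidney on the left and TLS on the right of each panel. Points are libraries and lines join kidney and TLS of mice H6, H20 and H115, whereas mouse H117 had no TLS. In the top 8 panels each TLS point lies above each kidney point, and in the panels from Slc22a6 to Atp6v1b1 each kidney point lies above each TLS point. The values of Kap overlapped between the tissues.

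Of the 9 chemokine and lymphotoxin genes of lymphoid organization tested, 6 were up-regulated in TLS (66.7%, beside 6.4% of all genes tested). The median was 2.78, or 1.95 once 3 genes are set at their lower bound. Ltb (ENSMUSG00000024399; chromosome 17, 35194439 to 35196320), which encodes lymphotoxin beta, had values of 3.54, 8.43, 1.16 and 1.77 in kidney and 114, 47.2 and 90.5 in TLS (4.32, standard error 0.52, adjusted p = 0.00129). Its receptor gene Ltbr was not DE (log2 fold change -0.96, adjusted p = 0.0941) but was DE and higher in kidney with the mouse as a replicate block (adjusted p = 0.0332). The B-cell attractant Cxcl13 (ENSMUSG00000023078; chromosome 5, 95956951 to 95961068) stayed at or under 3 reads in kidney, with values of 1.77, 3.37, 1.16 and 1.77, and values of 26.3, 39.3 and 32.7 in TLS, at least 5.98-fold higher (adjusted p = 0.000398). TLS of mouse H20 had the highest value. Cxcr5, the receptor for CXCL13, had no read in kidney and values of 19.5, 14.1 and 24.0 in TLS, at least 3.44-fold higher (adjusted p = 0.00116). Ccl19 (ENSMUSG00000071005; chromosome 4, 42754525 to 42756577), a ligand of CCR7 that attracts T cells and dendritic cells, had values of 6.19, 3.37, 1.16 and 10.6 in kidney and 153, 61.3 and 33.8 in TLS (3.71, adjusted p = 0.00756). In contrast to Cxcl13, it was highest in TLS of mouse H6. With 1 library left out, the DE genes of this list numbered between 4, without TLS of mouse H6, and 8, without TLS of mouse H115.

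The largest fold change of all genes outside the antibody segments was that of Glycam1 (ENSMUSG00000022491; chromosome 15, 103562759 to 103565081), the mucin of high endothelial venules. It had values of 0.884, 5.90, 1.16 and 1.77 in kidney and 272, 152 and 125 in TLS (5.87, standard error 0.48, adjusted p = 0.00032). Kidney of mice H6, H115 and H117 had no read. None of the other 4 tested genes of these vessels was DE (limma, 0 also at an unadjusted p under 0.05, and 0 with edgeR and DESeq2). Vcam1, an adhesion molecule of activated endothelium, had values of 36.2, 57.4, 2.32 and 1.77 in kidney and 17.8, 33.8 and 15.3 in TLS, which overlapped (0.89, adjusted p = 0.657). Chst4, Fut7 and Madcam1 fell below the filter. Of the 9 endothelial genes tested, 0 were DE in limma, edgeR or DESeq2, and 0 had an unadjusted p under 0.05 (median -0.09, which turned positive in 7 of 20 alternatives).

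Genes of antigen presentation differed least in mouse H20, as did the DE genes as a whole. The median within-mouse difference was 3.07, 2.15 and 2.91 in mice H6, H20 and H115 for the DE genes higher in TLS. For those higher in kidney it was -2.07, -1.34 and -1.60. Of the 10 genes of MHC class II presentation tested, 8 were up-regulated in TLS (80%, beside 6.4% of all genes tested, median 2.26). The median within-mouse difference was 2.72, 0.62 and 2.80 on the log2 scale in mice H6, H20 and H115. H2-Aa (ENSMUSG00000036594; chromosome 17, 34282744 to 34287823), the alpha chain of a class II molecule, had values of 98.1, 173, 52.2 and 42.6 in kidney and 708, 348 and 414 in TLS (2.56, standard error 0.52, adjusted p = 0.0137). Kidney of mouse H20 was the highest kidney library and TLS of mouse H20 the lowest TLS library. H2-Ob, part of the DO molecule that B cells use to modulate class II loading, had no more than 1 read in each kidney library and values of 29.7, 27.5 and 7.63 in TLS, at least 3.89-fold higher (adjusted p = 0.00492). Cd74, the invariant chain, had values of 402, 742, 196 and 206 in kidney and 2452, 1143 and 1254 in TLS (2.19, adjusted p = 0.033). Without TLS of mouse H6, 0 of the 10 genes were DE in limma, though 10 had an unadjusted p under 0.05 (adjusted p = 0.0824 for H2-Aa and 0.146 for Cd74), and without kidney of mouse H115 or of mouse H117 or TLS of mouse H20, 4 were. The call of Cd74 was lost with 5 of the 7 libraries left out. With the mouse as a replicate block, all 10 were DE.

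Among 10 genes of MHC class I and the immunoproteasome, 3 were up-regulated in TLS (30%, beside 6.4% of all genes tested, median 1.78). These were the immunoproteasome subunits Psmb9 and Psmb8 and the peptide transporter Tap1. Psmb9 had values of 5.30, 7.59, 2.32 and 1.77 in kidney and 61.1, 23.6 and 30.5 in TLS (2.94, adjusted p = 0.00493). It was DE with each library left out, whereas the calls of Psmb8 (2.57, adjusted p = 0.0194) and Tap1 (2.40, 0.0282) were lost with 3 and 4 of the 7 left out (adjusted p up to 0.104 and 0.143, without TLS of mouse H6). With 1 library left out, between 1 (without TLS of mouse H6 or kidney of mouse H115 or of mouse H117) and 5 (without kidney of mouse H20) of the 10 genes were DE, and with the replicate block 5 were. Ubd, a ubiquitin-like modifier induced by cytokines and one of the DE genes with the largest spread between mice, had values of 6.19, 10.1, 1.16 and 1.77 in kidney and 38.2, 21.2 and 48.0 in TLS (2.90, adjusted p = 0.0137, and up to 0.0774 with 1 library left out). B2m, the light chain of class I molecules, had values of 659.6, 1147, 451 and 215 in kidney and 1852, 2194 and 1680.3 in TLS, which did not overlap (1.86, adjusted p = 0.0607, and 0.0482 with the mouse as a replicate block). Of 12 interferon-stimulated genes, 4 were up-regulated in TLS (33.3%, beside 6.4% of all genes tested, median 1.49). The within-mouse medians were 1.36, 0.23 and 2.35 in mice H6, H20 and H115. Zbp1 (ENSMUSG00000027514; chromosome 2, 173206612 to 173218923), a sensor of nucleic acids, had values of 2.65, 5.06, 1.16 and 1.77 in kidney and 21.2, 9.43 and 9.81 in TLS (2.00, standard error 0.46, adjusted p = 0.023, lost with 4 of 7 libraries left out, up to 0.143). Ifi27l2a, an interferon-induced membrane protein gene, had values of 81.3, 181, 88.1 and 72.8 in kidney and 432, 175 and 460.1 in TLS, and in mouse H20 kidney was slightly above TLS (1.72, adjusted p = 0.0455). Its call was lost with the mouse as a replicate block (adjusted p = 0.0777) and with 5 of the 7 libraries left out (up to 0.182). Without TLS of mouse H6, 0 of the 12 genes were DE in limma and 8 had an unadjusted p under 0.05. Without kidney of mouse H115 or of mouse H117, 1 was DE, without TLS of mouse H115, 2 were, and without kidney of mouse H20, 7 were.

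Among myeloid genes, of 12 genes of macrophages and Fc receptors, Lyz2, Fcgr4 and Mpeg1 were up-regulated in TLS (25%, beside 6.4% of all genes tested, median 1.15). The within-mouse median was 1.06, -0.06 and 1.68 in mice H6, H20 and H115. Lyz2 (ENSMUSG00000069516; chromosome 10, 117277331 to 117282321), lysozyme of macrophages and neutrophils, had values of 172, 234, 109 and 65.7 in kidney and 609, 515 and 424 in TLS (1.96, standard error 0.46, adjusted p = 0.026). Fcgr4, an activating Fc receptor for IgG, had values of 8.84, 22.8, 11.6 and 5.32 in kidney and 61.1, 39.3 and 39.3 in TLS (1.99, adjusted p = 0.0199). Neither gene overlapped between the tissues. The macrophage receptor gene Csf1r was not DE (0.30, adjusted p = 0.713). None of the 12 was DE without TLS of mouse H6 or without TLS of mouse H20, where 5 and 6 had an unadjusted p under 0.05, and 1 was DE without kidney of mouse H115 or of mouse H117. The calls of Lyz2 and Fcgr4 were lost with 4 and 2 of the 7 libraries left out (adjusted p up to 0.117 and 0.107). Of the 2 dendritic cell genes tested, Itgax was up-regulated in TLS, with values of 3.54, 3.37, 1.16 and 1.77 in kidney and 29.7, 11.8 and 11.994 in TLS. It had at most 3 reads in each kidney library and was at least 3.18-fold higher in TLS (adjusted p = 0.0085, and 0.0673 without TLS of mouse H6). The listed genes Zbtb46, Ccl22, Xcr1, Clec9a, Siglech, Batf3 and Ccl17 fell below the filter. Among 13 complement genes, only Cfp and C1qc were up-regulated in TLS (15.4%, beside 6.4% of all genes tested, median 1.39). Cfp (chromosome X, 20925454 to 20931555), which encodes properdin, had values of 7.07, 4.22, 1.16 and 1.77 in kidney and 61.1, 22.0 and 28.3 in TLS (3.12, adjusted p = 0.00574). The call of C1qc, a chain of C1q (1.87, adjusted p = 0.0451), was lost with the replicate block (0.0731) and with 6 of the 7 libraries left out (up to 0.19). With the block, Cfi, the complement factor I protease, was DE and higher in kidney (adjusted p = 0.019, and 0.461 without it).

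All 15 tested genes of the leukocyte cytoskeleton and surface were up-regulated in TLS and did not overlap between the tissues, beside 6.4% and 11.3% of all genes tested. Their median was 2.30, or 2.26 once 3 genes are set at their lower bound. Members low in kidney could pass the filter through TLS alone, so these counts are partly set by the filter. Cd52 (ENSMUSG00000000682; chromosome 4, 134082448 to 134095082), a surface glycoprotein of lymphocytes, had values of 15.9, 25.3, 20.9 and 16.0 in kidney and 259, 125 and 191 in TLS (3.20, standard error 0.36, adjusted p = 0.000904). Rac2, a small GTPase of blood cells, had values of 11.5, 13.5, 4.64 and 7.10 in kidney and 119, 56.6 and 42.5 in TLS (2.81, adjusted p = 0.00491). Both were DE with each library left out. Of the 15 genes, 4 were DE without TLS of mouse H6, and with each of the other libraries left out between 13 and 15 were. The surface antigen Ly6d (ENSMUSG00000034634; chromosome 15, 74762056 to 74763620), which marks B-lineage precursors and is also made by stratified epithelium, had values of 3.54, 3.37, 8.11 and 1.77 in kidney and 257, 101 and 591 in TLS (5.72, standard error 0.60, adjusted p = 0.000748). TLS of mouse H115 was highest in this gene, as in the urothelial genes Upk3a and Krt5 below, and lowest in the share of antibody and T-cell receptor reads. Which cells the reads of Ly6d came from was not tested.

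Of 13 cell cycle genes tested, 3 were up-regulated in TLS (23.1%, beside 6.4% of all genes tested, median 1.15). In 3 of 3 mice, 11 were higher in TLS, where 18.3% of all genes tested were. Mki67, the proliferation marker, had values of 4.42, 5.90, 1.16 and 1.77 in kidney and 16.1, 13.4 and 18.5 in TLS (2.12, adjusted p = 0.0142). The replication helicase subunits Mcm5 and Mcm3 had log2 fold changes of 1.89 and 1.84 (adjusted p = 0.0392 and 0.0446). None of the 13 was DE without TLS of mouse H6 (adjusted p = 0.0824 for Mki67, 0.179 for Mcm5 and 0.201 for Mcm3, with 4 genes at an unadjusted p under 0.05). With TMM scaling, with edgeR, or without TLS of mouse H20 or kidney of mouse H115 or of mouse H117, 1 was DE, and with the replicate block 5 were. Of 17 genes of folding and secretion in the endoplasmic reticulum, Sec11c and Creld2 were up-regulated in TLS (11.8%, beside 6.4% of all genes tested, median 0.77). With the replicate block 4 genes were. Sec11c, a subunit of the signal peptidase, had values of 8.84, 12.7, 6.95 and 7.10 in kidney and 49.2, 26.7 and 36.0 in TLS (1.95, adjusted p = 0.00649). Creld2 (1.89, adjusted p = 0.0401) lost its call with 5 of the 7 libraries left out (up to 0.143, without TLS of mouse H6). None of the 18 listed ribosomal protein genes was DE in limma, where 6 had an unadjusted p under 0.05, or with edgeR, and 2 were with DESeq2 (median 0.65, with within-mouse medians of 1.40, 0.20 and 0.39). Outside the list, Rps27 (ENSMUSG00000090733; chromosome 3, 90212522 to 90213651) was among the 5 DE genes higher in TLS with the largest spread between mice, with values of 12.4, 55.7, 27.8 and 28.4 in kidney and 354, 125 and 242 in TLS (2.97, adjusted p = 0.00791, and 0.0532 without TLS of mouse H6). Reads of this ribosomal protein gene could also have come from its processed copies. Of all 72 ribosomal protein genes tested, counted by symbol after their values were seen, 4 were up-regulated in TLS (5.56%, beside 6.4% of all genes tested), namely Rps27, Rpl36a, Rps15a and Rpl12. Rps15a and Rpl12 lost the call with 6 and 5 of the 7 libraries left out.

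Genes of the urothelium, the epithelium that lines the renal pelvis, were also higher in TLS. Of the 10 genes tested, 8 were up-regulated in TLS (80%, beside 6.4% of all genes tested). Members low in kidney could pass the filter through TLS alone, so this count is partly set by the filter. The median was 3.53, or 3.06 once 3 genes are set at their lower bound. The within-mouse medians were 3.24, 2.33 and 4.03 in mice H6, H20 and H115. Upk3a (ENSMUSG00000022435; chromosome 15, 85017141 to 85022547), a uroplakin of the urothelial surface, had values of 5.30, 5.06, 8.11 and 1.77 in kidney and 135, 43.2 and 283 in TLS (4.42, standard error 0.62, adjusted p = 0.00291). Krt5 (ENSMUSG00000061527; chromosome 15, 101707070 to 101712898), a keratin of basal cells, had values of 5.30, 2.53, 1.16 and 1.77 in kidney and 80.6, 20.4 and 157 in TLS (4.26, adjusted p = 0.00407). For both genes TLS of mouse H115 was highest and TLS of mouse H20 lowest. Psca, a surface antigen of urothelium, had values of 6.19, 9.28, 12.7 and 1.77 in kidney and 152, 48.7 and 203 in TLS (3.99, adjusted p = 0.00514), and Krt15 a log2 fold change of 4.03 (adjusted p = 0.00739). Krt17, a keratin that is not on the list, had values of 0.884, 1.69, 1.16 and 1.77 in kidney and 31.4, 3.14 and 42.5 in TLS (2.94, adjusted p = 0.034, lost with 6 of 7 libraries left out, up to 0.177). The luminal keratin Krt20 was not DE and had no read in kidney or TLS of mouse H115 (-0.89, adjusted p = 0.62). The summed value of the 10 genes was 72.5, 70.0, 51.0 and 21.3 in kidney of mice H6, H20, H115 and H117 and 590.2, 197 and 1066 in TLS of mice H6, H20 and H115. The part of these genes in the other differences was not tested.

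Some adipocyte genes were high in 1 TLS library. Adipoq, Plin1, Lep, Retn and Cidec fell below the filter. No member of the 7 tested was DE in limma, where 0 had an unadjusted p under 0.05, or with edgeR or DESeq2. The within-mouse medians were -0.03, 4.27 and -0.05 in mice H6, H20 and H115. Cfd, the adipose complement protease adipsin, had values of 0.884, 0.844, 1.16 and 1.77 in kidney and 1.70, 152 and 1.09 in TLS. Ucp1, the uncoupling protein of brown fat, had values of 0.884, 0.844, 1.16 and 1.77 in kidney and 0.848, 71.5 and 1.09 in TLS. Both had reads in TLS of mouse H20 and at most 1 read in each other library, and they were named after their values were seen. Fabp4, a lipid carrier of adipocytes and capillaries, had values of 43.3, 70.9, 78.8 and 33.7 in kidney and 45.8, 283 and 45.8 in TLS, again highest in TLS of mouse H20. Scd1, the listed gene with the highest mean, had values of 235, 76.8, 516 and 153 in kidney and 51.7, 199 and 169 in TLS (-0.69, limma adjusted p = 0.574). Its value in TLS of mouse H20 lay below those in kidney of mice H6 and H115. In mouse H20, the within-mouse differences of the MHC class II, interferon and macrophage lists were the smallest of the 3 mice. So were the medians of the DE genes in each direction, and whether these go together with the adipocyte genes was not tested. Of 14 genes of matrix and fibroblasts, 1 was up-regulated in TLS (7.14%, beside 6.4% of all genes tested). This was Dcn, the proteoglycan decorin, with values of 33.6, 59.0, 18.5 and 12.4 in kidney and 112, 121 and 183 in TLS (2.33, adjusted p = 0.0187, lost with 3 of 7 libraries left out, up to 0.0715). With the replicate block, the basement membrane collagens Col4a1 and Col4a2 were DE and higher in kidney (adjusted p = 0.0428 and 0.0133, and 0.557 and 0.582 without it). Of 8 smooth muscle and pericyte genes, 0 were DE in limma, where 2 had an unadjusted p under 0.05, or with edgeR or DESeq2 (median 0.43). With the replicate block, Rgs5, a regulator of G protein signalling in pericytes, was DE and higher in TLS (adjusted p = 0.0343, and 0.0617 without the block).

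**Figure D3:**
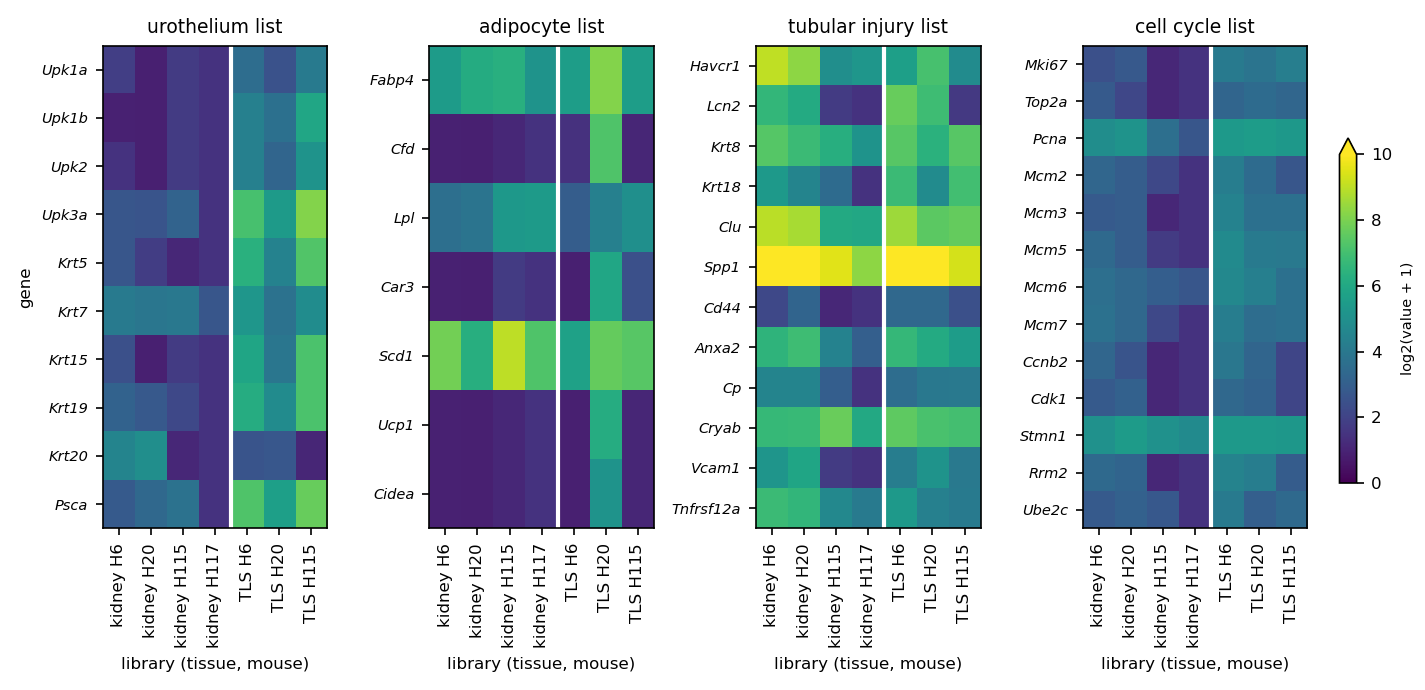
Heat maps of log2(value + 1) for the tested members of 4 lists (rows) in the 4 kidney and 3 TLS libraries (columns, divided by a white line), with colours capped at 10. The urothelium genes other than Krt7 and Krt20 are brighter in the 3 TLS libraries than in kidney, and Cfd, Car3, Ucp1 and Cidea are bright only in TLS of mouse H20. In the tubular injury list, kidney of mice H6 and H20 differs from kidney of mice H115 and H117.

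Genes of the proximal tubule were higher in kidney. All 24 of its listed transporters and receptors were tested, and each was higher in kidney in 3 of 3 mice, where 37.8% of all genes tested were. Of these, 11 were DE and higher in kidney (45.8%, beside 4.63% of all genes tested) and 0 were up-regulated in TLS (median -1.95). With the mouse as a replicate block, 23 were DE. Within the mice, the medians were -2.87, -1.48 and -1.85 in mice H6, H20 and H115. The number of DE genes was 4 without TLS of mouse H6, 7 without TLS of mouse H20 and 7 without kidney of mouse H115. Without TLS of mouse H115, 20 were DE, and with edgeR 6 were. The summed value was 2451, 1616, 4982 and 2606 in kidney of mice H6, H20, H115 and H117 and 416, 613 and 1478 in TLS of mice H6, H20 and H115. The sums did not overlap, and TLS of mouse H115, the highest of the TLS, came near kidney of mouse H20, the lowest of the kidneys. Kidney of mouse H115 was the highest.

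Slc22a6 (ENSMUSG00000024650; chromosome 19, 8618039 to 8628299) and Slc22a8 (ENSMUSG00000063796; chromosome 19, 8591254 to 8611835) are neighbouring genes that encode the organic anion transporters OAT1 and OAT3 of the basolateral membrane. Slc22a6 had values of 86.6, 55.7, 69.5 and 44.4 in kidney and 8.48, 18.9 and 7.63 in TLS (-2.42, standard error 0.39, adjusted p = 0.00499). Slc22a8 had values of 94.6, 65.8, 111 and 67.4 in kidney and 11.023, 21.2 and 9.81 in TLS (-2.56, standard error 0.37, adjusted p = 0.00291). In both genes all kidney libraries were above all TLS libraries, with TLS of mouse H20 the highest of the TLS. Their promoters are shown, with that of Nat8 (ENSMUSG00000030004; chromosome 6, 85830388 to 85832082), because these genes were higher in kidney together and each promoter holds GTTAAT, the half-site of the kidney and liver factor HNF1. Nat8, an acetyltransferase of the proximal tubule that makes mercapturic acids, had values of 17.7, 18.6, 18.5 and 16.0 in kidney and 0.848, 3.93 and 3.27 in TLS (-2.46, adjusted p = 0.00344). Capitals mark this half-site, and in Nat8 also the letters CAAAGTCC of an HNF4 site, in reverse complement. Each run reaches from 250 bases before to 50 bases after the start site (RefSeq, GRCm38.p6), and the matches begin at -56 in Slc22a6 (chr19:8617746-8618045, plus strand), at -81 in Slc22a8 (chr19:8592932-8593231, plus strand) and at -27 and 3 in Nat8 (chr6:85832230-85832529, minus strand).
Slc22a6 promoter: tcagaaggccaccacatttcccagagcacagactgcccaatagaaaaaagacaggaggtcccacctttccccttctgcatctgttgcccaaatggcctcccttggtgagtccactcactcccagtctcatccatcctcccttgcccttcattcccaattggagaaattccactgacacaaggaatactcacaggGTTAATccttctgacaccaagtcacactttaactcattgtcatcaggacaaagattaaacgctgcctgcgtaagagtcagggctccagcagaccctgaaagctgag
Slc22a8 promoter: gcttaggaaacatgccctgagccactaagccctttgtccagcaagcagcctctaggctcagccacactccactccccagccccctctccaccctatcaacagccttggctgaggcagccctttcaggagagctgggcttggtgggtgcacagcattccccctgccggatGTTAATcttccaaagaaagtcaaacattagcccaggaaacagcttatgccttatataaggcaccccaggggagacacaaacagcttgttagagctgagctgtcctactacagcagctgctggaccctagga
Nat8 promoter: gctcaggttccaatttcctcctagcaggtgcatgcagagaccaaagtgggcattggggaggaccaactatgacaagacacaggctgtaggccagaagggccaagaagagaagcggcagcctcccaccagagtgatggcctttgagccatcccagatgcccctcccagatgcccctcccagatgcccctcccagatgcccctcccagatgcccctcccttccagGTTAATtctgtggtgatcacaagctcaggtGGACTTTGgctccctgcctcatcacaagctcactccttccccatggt
On either strand, 7.10% of the 32851 promoters in the table hold GTTAAT and 1.42% hold CAAAGTCC, and the matched letters do not overlap each other in these promoters. The promoters of H2-DMb2 and Cfp, both up-regulated in TLS, also hold GTTAAT on one of the strands, so the letters were not restricted to genes higher in kidney. A match is a description of the letters and not of binding.

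Among the other transporters, Slc5a2 (ENSMUSG00000030781; chromosome 7, 128265657 to 128272430), the sodium-glucose cotransporter SGLT2, had values of 43.3, 43.0, 73.0 and 63.9 in kidney and 5.09, 11.003 and 13.1 in TLS (-2.45, standard error 0.38, adjusted p = 0.00411). Slc26a1 (ENSMUSG00000046959; chromosome 5, 108669878 to 108675569), a sulfate anion exchanger, had values of 40.7, 18.6, 18.5 and 12.4 in kidney and at most 2 reads in each TLS library, at least 6.54-fold lower (adjusted p = 0.00305). Both were DE with each library left out. The lactate transporter Slc5a12 had values of 23.9, 21.1, 45.2 and 44.4 in kidney and 0.848, 7.07 and 9.81 in TLS (-2.59, adjusted p = 0.0245, lost with 3 of 7 libraries left out, up to 0.0714). The endocytic receptor gene Lrp2, megalin, was not DE (-2.11, adjusted p = 0.178), with values of 74.3, 55.7, 468 and 137 in kidney and 10.2, 19.6 and 113 in TLS, but was DE with the replicate block (adjusted p = 0.00712). Kidney of mouse H115 was far above the other kidneys in Lrp2, and TLS of that mouse above kidney of mice H6 and H20. Slc27a2, a fatty acid transporter, had values of 424, 242, 993 and 394 in kidney and 56.8, 94.3 and 348 in TLS (adjusted p = 0.114, and 0.0182 with the block).

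Enzymes of the proximal tubule were lower in TLS as well. Each of 20 listed metabolic genes was higher in kidney in 3 of 3 mice, where 37.8% of all genes tested were. Of the 20, 10 were DE (50%, beside 4.63% of all genes tested, median -1.89) and 18 were DE with the mouse as a replicate block. The number was 3 without TLS of mouse H6, and without kidney of mouse H117, 4 were, without TLS of mouse H20 or kidney of mouse H115, 5 were, and without TLS of mouse H115, 17 were. Miox (ENSMUSG00000022613; chromosome 15, 89334398 to 89337015), the first enzyme of inositol breakdown, had values of 543, 635, 807 and 1012 in kidney and 98.4, 218 and 159 in TLS (-2.27, standard error 0.41, adjusted p = 0.00821). Acmsd (ENSMUSG00000026348; chromosome 1, 127729413 to 127767978), which directs tryptophan breakdown away from NAD synthesis, had values of 20.3, 27.8, 24.3 and 35.5 in kidney and 0.848, 6.29 and 5.45 in TLS (-2.63, standard error 0.47, adjusted p = 0.00809). TLS of mouse H6 had no read of Acmsd. Kap, the kidney androgen-regulated protein gene, had values of 4482, 7074, 13668 and 13990.3 in kidney and 732, 3361 and 5909.8 in TLS. It was higher in kidney in 3 of 3 mice and not DE (-1.85, adjusted p = 0.157). TLS of mouse H115 lay above kidney of mouse H6. Glyat, a glycine acyltransferase, and Apob, apolipoprotein B, were also among the DE genes with the largest spread between mice, with within-mouse differences of -3.50, -1.12 and -1.58 and -3.47, -0.96 and -1.61 in mice H6, H20 and H115 (fitted -1.88 and -1.92, adjusted p = 0.0461 and 0.0376, and up to 0.167 and 0.12 with 1 library left out). The hydroxyproline pathway enzyme Prodh2 had values of 27.4, 23.6, 20.9 and 33.7 in kidney and 2.54, 7.07 and 3.27 in TLS (-2.44, adjusted p = 0.00282).

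Gpx3 (ENSMUSG00000018339; chromosome 11, 54902453 to 54910377), the plasma glutathione peroxidase that the proximal tubule secretes, had values of 6921, 5388, 3829 and 6984 in kidney and 700.4, 1734 and 889 in TLS (-2.45, standard error 0.49, adjusted p = 0.0127). The call was lost without TLS of mouse H6 (adjusted p = 0.0579). The deiodinase Dio1, which activates thyroid hormone, had values of 20.3, 15.2, 47.5 and 72.8 in kidney and 0.848, 6.29 and 10.9 in TLS (-2.62, adjusted p = 0.0448). Its call was lost with 5 of the 7 libraries left out (up to 0.167). Enpp6, a choline phosphodiesterase, had values of 13.3, 11.8, 8.11 and 8.87 in kidney and no read in TLS, at least 2.86-fold lower (adjusted p = 0.00407). Smlr1 had values of 7.07, 9.28, 25.5 and 23.1 in kidney and at most 2 reads in each TLS library, at least 4.61-fold lower (adjusted p = 0.00809, and 0.0533 without TLS of mouse H6). BC089597, for which no position was found in the annotation, had values of 129, 110.5, 366 and 431 in kidney and 22.0, 29.9 and 96.0 in TLS (-2.42, adjusted p = 0.043, lost with 4 of 7 left out, up to 0.185).

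Of 17 genes of xenobiotic metabolism, 8 were up-regulated in kidney (47.1%, beside 4.63% of all genes tested, median -1.86). With the mouse as a replicate block, 12 were. Only 2 were DE without TLS of mouse H6, and without kidney of mouse H115 or TLS of mouse H20, 4 were, and without kidney of mouse H6, 5 were. Ugt1a2 (ENSMUSG00000090171; chromosome 1, 88200601 to 88218997), a glucuronosyltransferase, had the largest fold change in this direction, with values of 38.9, 52.3, 88.1 and 72.8 in kidney and 8.48, 8.65 and 1.09 in TLS (-3.41, standard error 0.56, adjusted p = 0.00569). TLS of mouse H115 had no read. It shares exons with Ugt1a10 (-2.63, adjusted p = 0.0074, and 0.0507 without TLS of mouse H6), and reads could have been counted on either. Cyp4b1, a cytochrome P450, had values of 163, 86.0, 103 and 62.1 in kidney and 23.7, 27.5 and 15.3 in TLS (-2.12, adjusted p = 0.0098). Gstm1, a glutathione transferase, was not DE, with values of 306, 237, 647 and 217 in kidney and 179, 131 and 369 in TLS (adjusted p = 0.477). The peroxisomal and mitochondrial oxidation of fatty acids gave 5 DE genes of 20, each higher in kidney (25%, beside 4.63% of all genes tested, median -1.35). With the replicate block, 14 were DE. Acaa1b (ENSMUSG00000010651; chromosome 9, 119148023 to 119157093), a peroxisomal thiolase, had values of 84.0, 64.1, 116 and 124 in kidney and 15.3, 18.9 and 27.3 in TLS (-2.18, standard error 0.36, adjusted p = 0.00597), and it was DE with each library left out. Acot1, an acyl-CoA thioesterase, had values of 57.5, 46.4, 62.6 and 53.2 in kidney and 14.4, 10.2 and 24.0 in TLS (-1.77, adjusted p = 0.0115, lost with 2 of 7 left out, up to 0.0582). Without TLS of mouse H6, 1 gene of this list was DE, without kidney of mouse H115 or TLS of mouse H20, 2 were, and without TLS of mouse H115, 8 were.

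None of the 22 nuclear-encoded genes of oxidative phosphorylation was DE in limma, where 8 had an unadjusted p under 0.05, or with edgeR or DESeq2 (median -0.83). In 3 of 3 mice, 21 of them were higher in kidney, where 37.8% of all genes tested were. With the mouse as a replicate block 1, Uqcrc1, was DE (adjusted p = 0.0404). The within-mouse medians were close together, at -0.76, -0.67 and -0.89 in mice H6, H20 and H115. None of the 13 mitochondrially encoded protein genes was DE in limma, where 0 had an unadjusted p under 0.05, or with edgeR or DESeq2, and the within-mouse medians were -1.94, -0.22 and -0.34, with mouse H6 apart. mt-Co1, a subunit of cytochrome oxidase, had values of 12609, 9181, 23247 and 9074 in kidney and 3514, 9231 and 14969.7 in TLS (log2 fold change -0.67, adjusted p = 0.56). The values of mt-Atp6 were 6555, 4585, 12741 and 3202 in kidney and 1705, 5087 and 10248 in TLS, and those of mt-Co2 were 6995, 6341, 11065 and 4613 and 1929.9, 5461 and 5958. In all 3 genes the tissues overlapped, with TLS of mouse H6 the lowest.

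**Figure D4:**
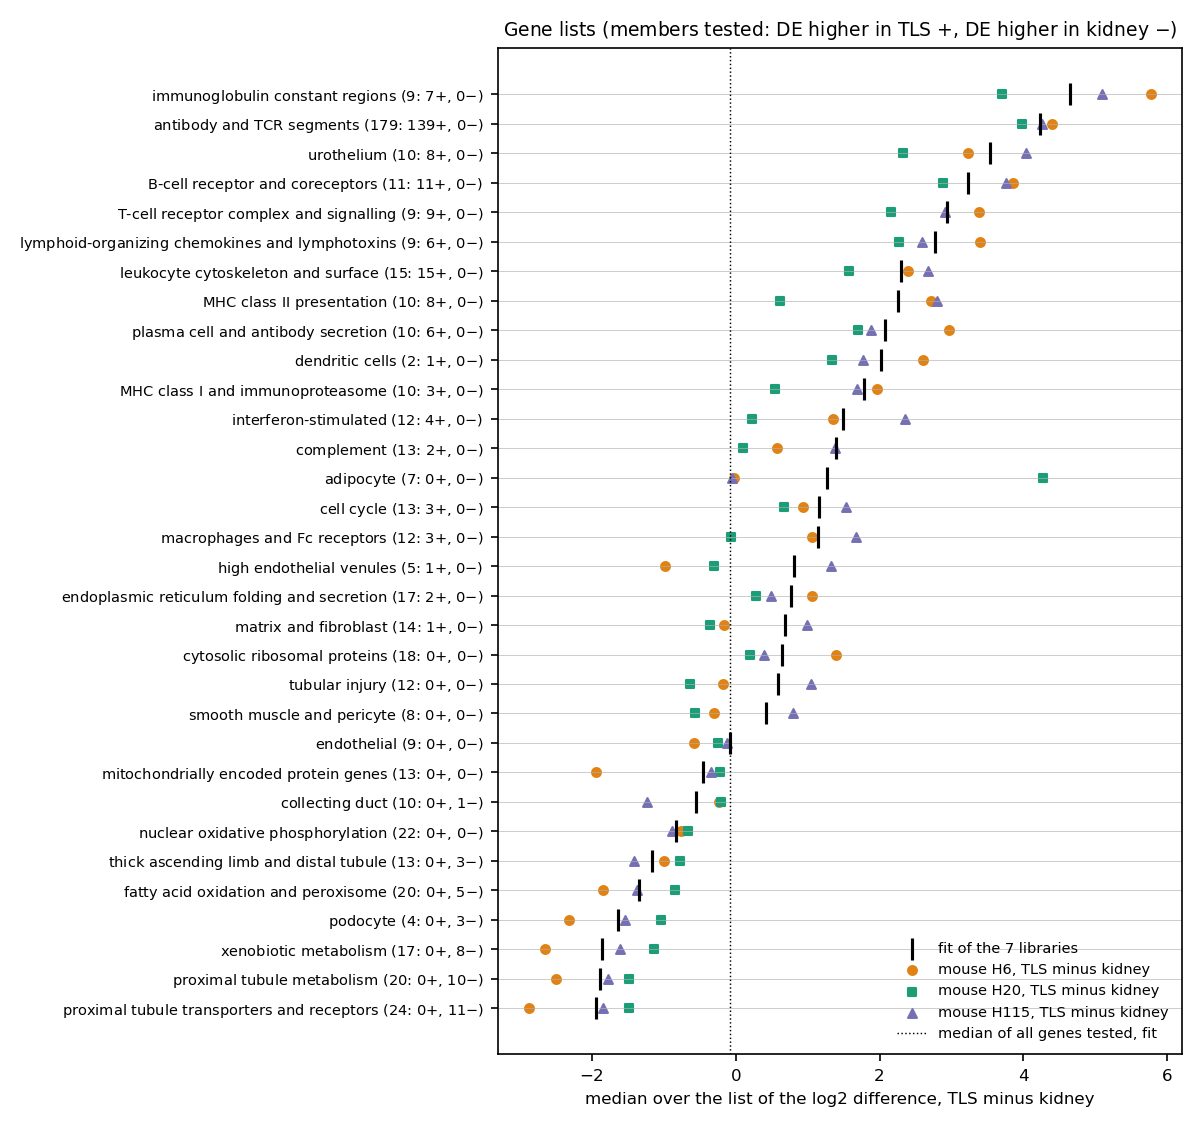
Median log2 difference of TLS minus kidney (x axis) for the tested members of each gene list (rows), with the number tested and the numbers DE in each direction beside the name. Vertical ticks give the median in the fit of the 7 libraries, symbols the medians within mice H6, H20 and H115, and the dotted line the median of all genes tested, -0.08. The B-cell, plasma cell and T-cell lists lie right of the line in all 3 mice and both proximal tubule lists left of it, whereas the adipocyte list stands apart only in mouse H20.

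In the glomerulus, 3 of the 4 podocyte genes tested were up-regulated in kidney (75%, beside 4.63% of all genes tested, median -1.64). Without TLS of mouse H6 or kidney of mouse H115, 1 was. Clic5 (ENSMUSG00000023959; chromosome 17, 44188584 to 44280172), a chloride channel family protein of podocyte foot processes, had values of 14.1, 10.965, 22.0 and 16.0 in kidney and 1.70, 3.93 and 6.54 in TLS (-1.81, standard error 0.40, adjusted p = 0.0189, lost with 4 of 7 left out, up to 0.0824). Podxl, the sialomucin podocalyxin, had values of 55.7, 32.1, 40.6 and 37.3 in kidney and 11.9, 18.1 and 13.1 in TLS (-1.46, adjusted p = 0.0181, lost with 2 of 7 left out, up to 0.0831). Of 13 genes of the thick ascending limb and distal tubule, 3 were up-regulated in kidney (23.1%, beside 4.63% of all genes tested, median -1.17). The number was 1 without TLS of mouse H6, and 2 without kidney of mouse H20, of mouse H115 or of mouse H117 or TLS of mouse H20. Slc12a3 (ENSMUSG00000031766; chromosome 8, 94329201 to 94366214), the thiazide-sensitive cotransporter of the distal convoluted tubule, had values of 90.2, 77.6, 118 and 114 in kidney and 17.8, 18.1 and 27.3 in TLS (-2.20, standard error 0.33, adjusted p = 0.00329). It was DE with each library left out. Umod, uromodulin of the thick ascending limb, was not DE (-0.59, adjusted p = 0.533), with values of 830.2, 705, 2705 and 893 in kidney and 697, 539 and 1009.7 in TLS, and Fxyd2, a regulator of the sodium pump, did not pass the test either (-1.72, adjusted p = 0.0805) though its tissues did not overlap. In the collecting duct, 1 of 10 genes was up-regulated in kidney (10%, beside 4.63% of all genes tested, median -0.55). With the replicate block or without kidney of mouse H6 or TLS of mouse H115, 2 were. The 1 gene was Atp6v1b1, a proton pump subunit of intercalated cells, with values of 30.1, 30.4, 35.9 and 33.7 in kidney and 14.4, 9.43 and 10.9 in TLS (-1.43, adjusted p = 0.0122, and 0.052 without TLS of mouse H20). Aqp2, the water channel of principal cells, had values of 38.0, 44.7, 103 and 37.3 in kidney and 148, 62.1 and 45.8 in TLS, highest in TLS of mouse H6 (0.56, adjusted p = 0.533).

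None of the 12 listed genes of tubular injury was DE in limma, where 1 had an unadjusted p under 0.05, or with edgeR or DESeq2 (median 0.59), and Tnfrsf12a, the receptor gene of TWEAK, was DE and higher in kidney with the mouse as a replicate block (adjusted p = 0.0337). The summed value was 13323, 10476, 1201 and 547 in kidney of mice H6, H20, H115 and H117 and 3032, 4421 and 1406 in TLS of mice H6, H20 and H115. Spp1, osteopontin, had values of 11628, 9144, 753 and 318 in kidney and 1761, 3591 and 662 in TLS. Havcr1, the kidney injury molecule KIM-1, had values of 530.5, 317, 30.1 and 37.3 in kidney and 49.2, 137 and 27.3 in TLS. Lcn2, the lipocalin NGAL, had values of 96.4, 69.2, 2.32 and 1.77 in kidney and 202, 119 and 2.18 in TLS, with no read in kidney of mouse H117 and 1 read in each tissue of mouse H115. Havcr1 and Lcn2 were named after their values were seen. In each of these genes both tissues of mice H6 and H20 lay above both tissues of mouse H115 and above kidney of mouse H117, although all 4 mice were labelled proteinuric. In age, mice H6 and H20 were the oldest of the 4. Their libraries also held less ribosomal RNA, 1.64% to 2.73% of reads, against 5.13% to 55.6% in those of mice H115 and H117. Whether either goes with the injury genes was not tested. Spp1 and Havcr1 were higher in kidney than in TLS of mice H6 and H20, while Lcn2 was higher in TLS, and none of these differences passed the test in the fit (adjusted p = 0.857, 0.588 and 0.688). The part of this difference between mice in the spread of the nephron genes was not tested.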

How the data were processed

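The authors aligned Ion Torrent reads of poly(A) RNA to a GRCm38 annotation in CLC Genomics Workbench. The deposited values are a normalized signal per gene, and 100% of the values in the 7 libraries used here, multiplied by the library's size factor, came out whole (tolerance 0.001) with a smallest number of 1, so 1 read had been added to each count before division. Counting strand is not given in the sources used here. Genes averaging 5 or more were tested on log2(value + 1) with limma 3.58.1 in R 4.3.3 (kidney against TLS, Benjamini-Hochberg adjusted p under 0.05). The count tests edgeR 4.0.16 and DESeq2 1.42.0 on the recovered reads, TMM scaling, a mouse block, other pseudocounts and filters, and leaving out libraries were alternatives. The steps were tested on simulated data. Replicates are separate mice, and mice H6, H20 and H115 gave both tissues, so the block pairs tissues of the same animal. Kidney of mouse H117, the library with the most ribosomal RNA, has no partner and does not enter the fold changes of the replicate block. Deviations from the tissue means correlated at 0.37, 0.38 and 0.47 in these pairs, and from -0.52 to 0.39 between kidney and TLS of different mice. Genes were named by a rule: in each direction the 15 largest fold changes of DE genes whose tissues do not overlap and whose 3 mice share the direction, without segments and unnamed models; for each list up to 4 of its most changed DE members and the one with the highest mean; the 5 highest means of each tissue; and the 5 DE genes per direction with the largest spread between mice. Members that missed the test were added for comparison after their values were seen. Some genes that the rule names are not reported here. Members and gene lists were chosen with earlier results of these data known. Positions are from GENCODE M21 (13762 genes matched, 220 not). Lymph node and whole-kidney libraries were not used here, except that the lymph node libraries of the same table entered 1 alternative.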

Additional observations from a re-analysis of the deposited data

Results flagged for a closer look

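In kidney of mouse H117, ribosomal RNA held 55.6% of reads, against 1.64%, 2.73% and 5.13% in the other kidneys. The gap to the nearest kidney was 0.935 of the range of the 4 libraries, above Dixon's 95% critical value. Of 111 groups examined in this way, this was the only one past the critical value, where chance gives about 1 in 20. Without this library, 327 genes were DE and higher in TLS and 162 were DE and higher in kidney.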

How the results depend on the processing

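Of the 793 DE genes, 0 were DE in the opposite direction under any of the 21 alternatives in limma, edgeR or DESeq2. The number of genes higher in kidney moved by over 1.5 times with the scaling and the tool, to 204 with DESeq2, 168 with TMM, 206 with TMM computed without ribosomal and receptor genes, and 123 and 113 with edgeR under DESeq2 and TMM scaling. With the mouse as a replicate block, 1416 genes were DE and 859 were higher in kidney, and as a random block 1730, of which 701 were higher in TLS and 1029 in kidney. The block kept 783 of the 793 calls in the same direction. The cause of these shifts was not tested. With 1 library left out, between 255 and 965 genes were DE, between 207 and 481 higher in TLS and between 48 and 497 higher in kidney. The fewest were DE without TLS of mouse H6 and the most without TLS of mouse H115. With a mean value of at least 10, 598 of 4345 genes were DE, and with no filter 895 of 13149. Of the 94 DE genes described or compared by name, 43 were DE in every alternative that gave a value. Of 2108 values of named genes under alternatives, 1846 kept direction and call, 245 kept direction and lost the call, 13 gained it, and 4 of genes not called changed sign. List medians changed sign in 7 of 20 alternatives for endothelial, 2 for smooth muscle, 1 for matrix and 1 for adipocyte genes. Depth limits low genes: in 129 of the 460 genes higher in TLS each kidney library had at most 3 reads, and in 33 of the 333 higher in kidney each TLS library did.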

Other observations

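Gene families, grouped by symbol after their values were seen, gave the following counts. Of 161 solute carrier genes tested, 31 were up-regulated in kidney (19.3%, beside 4.63% of all genes tested) and 1, the urea transporter Slc14a2, in TLS, whose call was lost with 3 of the 7 libraries left out (limma adjusted p up to 0.15). Of 18 cytochrome P450 genes, 7 were up-regulated in kidney (38.9%) and 1, Cyp2f2, in TLS. Aldehyde dehydrogenases gave 4 of 13 genes (30.8%), and UDP-glucuronosyltransferases 3 of 11 (27.3%), each higher in kidney.

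Chemokine genes gave 6 of 17 up-regulated in TLS (35.3%, beside 6.4% of all genes tested), namely Ccl19, Cxcl13, Ccl8, Cxcl9, Ccl21a and Ccl4, and 0 in kidney. Reads of Ccl21a could have been split among its near-identical copies. The calls of Ccl21a and Ccl4 were lost with 5 and 2 of the 7 libraries left out (limma adjusted p up to 0.136 and 0.0909). Ccl8 had values of 1.77, 14.3, 2.32 and 10.6 in kidney of mice H6, H20, H115 and H117 and 153, 44.8 and 51.2 in TLS of mice H6, H20 and H115 (log2 fold change 3.49, limma adjusted p = 0.0133, and 0.0733 without TLS of mouse H6). The chemokine receptor genes Cxcr4, Cxcr3, Cxcr5 and Ccr7 were up-regulated in TLS among 6 tested (66.7%), and the call of Ccr7 was lost without TLS of mouse H6 (limma adjusted p = 0.0582). Of 44 proteasome genes, only the immunoproteasome subunits Psmb9 and Psmb8 were DE, both higher in TLS (4.55%, below the 6.4% of all genes tested), and the call of Psmb8 was lost with 3 of the 7 libraries left out.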
